A study of Mus musculus with 6 samples.

Results

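The 10 genes described here are heart transcription factors and natriuretic peptides of the midgestation mouse embryo, namely *Nkx2-5*, *Gata4*, *Gata5*, *Gata6*, *Tbx20*, *Hand1*, *Mef2c*, *Tbx1*, *Nppa* and *Nppb*. They were taken by gene symbol from an RNA-seq table of 24207 loci, where each of them had 1 locus. The study compared 3 Smchd1+/+ embryos (wildtype) with 3 Smchd1MommeD1/MommeD1 embryos (mutant), all of them male and dissected at E9.5. MommeD1 is a chemically induced nonsense mutation of *Smchd1*, a gene for a chromatin protein needed for X inactivation, and all embryos came from matings of heterozygous parents. For both genotypes the strain is given as C57Bl6/J by FVB/n in the labels, whereas the study's text describes a backcross to another strain. RNA was taken from embryos whose yolk sac had been used for genotyping, so heart cells were 1 part of a mixture of tissues.

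The unit of every level below is FPKM, the fragments from a gene scaled to the length of its transcript and to the size of the library, so levels can be compared between genes. The table holds 1 FPKM value per genotype, pooled over its 3 embryos. No spread between embryos is therefore given, no test across embryos was run, and the read depth is unknown. Ratios are log2 of mutant over wildtype with 0.1 FPKM added to each value, which understates differences of low genes. *Smchd1* itself had 34.0 FPKM in the wildtype and 2.12 FPKM in the mutant, which matches the genotype labels. In whole embryos, fewer cells of a type and less RNA per cell cannot be told apart. With 1 pooled value each, a difference in stage or litter between the groups cannot be told apart from genotype either.

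As background, the heart is the first organ to work in the embryo, and at this stage it is a looped tube in which chambers begin to form. NK2, GATA, T-box, HAND and MEF2 proteins bind DNA together in heart muscle precursors and switch on genes of contraction and of chamber identity. *Nppa* and *Nppb*, which encode the atrial and the brain natriuretic peptide, are textbook targets of these factors and are used as markers of chamber muscle. Most of the factors also act elsewhere, for example in the gut endoderm, the pharynx, the yolk sac and the lateral mesoderm.

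All 10 genes were lower in mutant than in wildtype embryos, and none of them differed by 1.5-fold. Their log2 ratios ran from -0.46 for *Tbx20* to -0.10 for *Nppb*, with a median of -0.31. Among the 12463 loci whose mean of both genotypes reached 1 FPKM, as it did for all 10 genes, 51.8% were lower in mutant embryos and the median was -0.0076. Lower by at least 1.5-fold were 1.47% of loci, against 0 of the 10 genes, and 3.51% were higher by that much. At a smaller limit of 0.32 on the log2 scale, 5 of the 10 genes were lower (*Tbx20*, *Gata4*, *Hand1*, *Mef2c* and *Tbx1*), against 4.98% of these loci. At the same limit 8.84% of these loci and none of the 10 genes were higher. The count of 5 rests on genes close to the limit. It was 3 with 1 FPKM added in place of 0.1. After scaling both genotypes to the same total FPKM it was 2 (*Tbx20* and *Gata4*). The loci at 3 to 20 FPKM, the range of levels of these genes, numbered 6021, of which 50.8% were lower and 4.97% were lower by at least 0.32 on the log2 scale. The members were picked with earlier results of these data known, so their shared direction is a description.

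**Figure D1:**
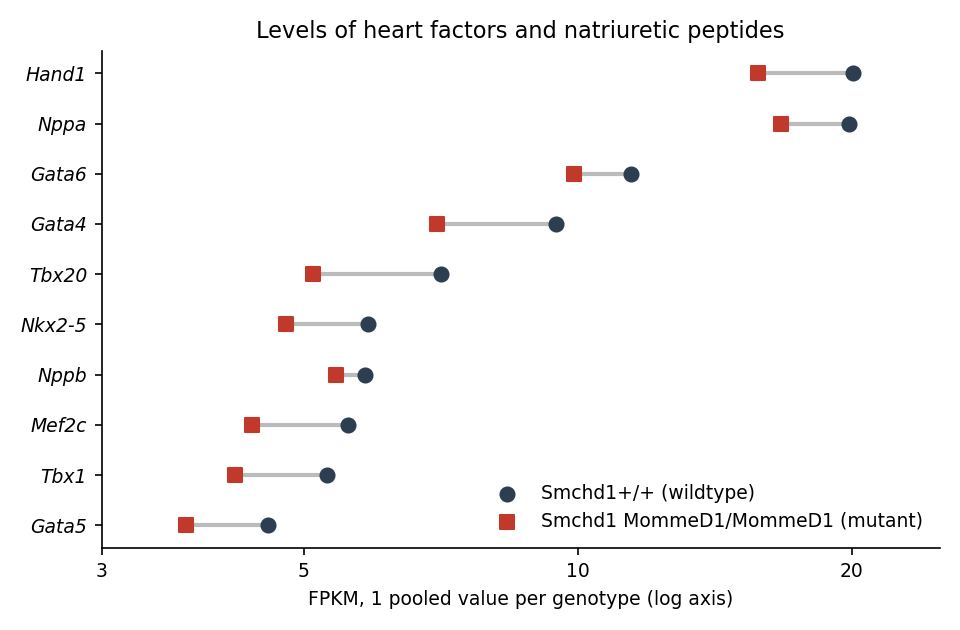
FPKM of each gene (log axis), with circles for the pooled value of the 3 wildtype embryos and squares for that of the 3 mutant embryos, ordered by the wildtype level. Every square lies to the left of its circle, with the widest gap on this axis for *Tbx20* and the narrowest for *Nppb*.

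In wildtype embryos the 10 levels spanned 4.40-fold, from 4.57 FPKM for *Gata5* to 20.1 FPKM for *Hand1*. *Hand1* and *Nppa* led the order in both genotypes, followed by *Gata6* and *Gata4*. The lower part of the order was crowded, since *Nkx2-5*, *Nppb* and *Mef2c* lay between 5.59 and 5.88 FPKM in wildtype embryos. Of the 10 genes, 5 held the same rank in both genotypes. The others traded places. *Nppa* passed *Hand1* in the mutant order, and *Nppb* moved from rank 7 to rank 5, ahead of *Tbx20* and *Nkx2-5*. In wildtype embryos *Nppb* was at 5.84 FPKM and *Tbx20* at 7.09 FPKM. Neighbours with close levels cannot be ordered, since the values carry no error.

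**Figure D2:**
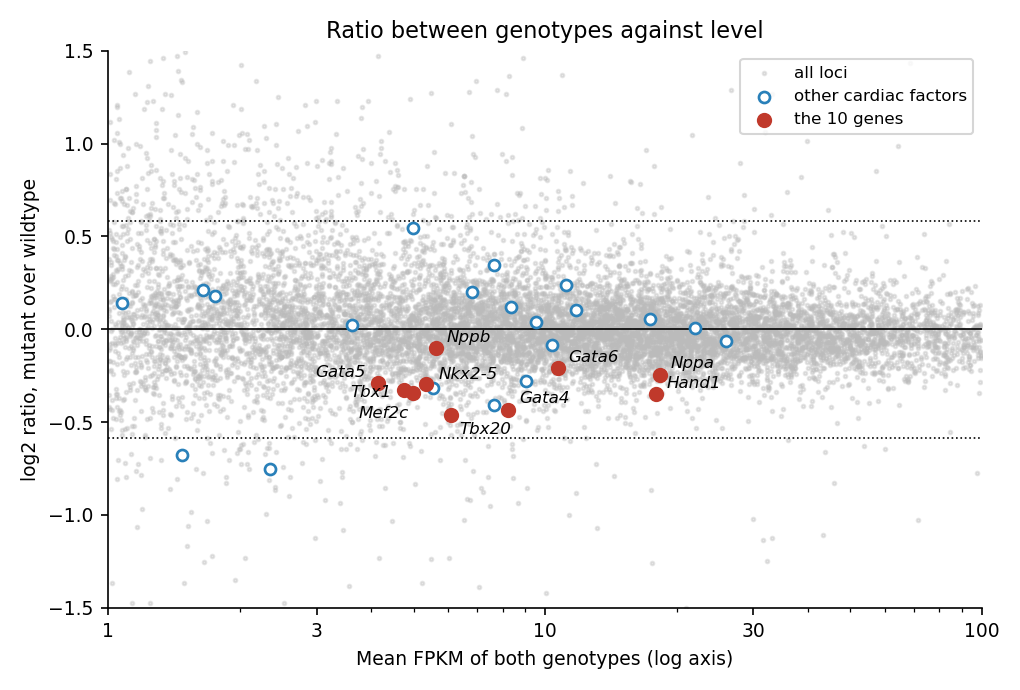
Log2 ratio of mutant over wildtype against the mean FPKM of both genotypes (log axis), for all loci whose mean reached 1 FPKM (grey), the 20 other cardiac factors that reached it (open circles) and the 10 genes (filled). Dotted lines mark 1.5-fold, the 10 genes lie between 0 and the lower line, and 990 loci fall outside the axes.

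Among the zinc finger factors of the GATA family, *Gata4* is needed for the formation of the heart tube. *Gata6* acts beside it in heart muscle and endoderm, and *Gata5* is prominent in the endocardium. *Gata4* (chr14:63198922-63271692 of mm10) was at 6.9999 FPKM in mutants against 9.48 FPKM in wildtype embryos, a log2 ratio of -0.43, or 26.2% lower. *Gata6* was the most abundant of the 3 and had the smallest difference, with 9.91 and 11.5 FPKM and a log2 ratio of -0.21. *Gata5* (chr2:180325133-180334699) was at 3.72 and 4.57 FPKM, a log2 ratio of -0.29. The order of the 3 levels was therefore the same in both genotypes, while *Gata6* stood at 1.42 times the level of *Gata4* in mutant and at 1.21 times in wildtype embryos. Only 2.79% of all loci had a log2 ratio as low as that of *Gata4*, against 11.8% for *Gata6*. The libraries did not keep the strand, and antisense transcripts overlap 2 of these genes, *Gata5os* over 258 of 3277 exonic bases of *Gata5* and *1010001N08Rik* over 93 of 6508 exonic bases of *Gata6*, so reads there cannot be told apart.

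*Tbx20*, a T-box gene needed for growth of the chamber muscle, had the lowest ratio of the 10 genes. Mutant embryos had 5.12 FPKM and wildtype embryos 7.09 FPKM, a log2 ratio of -0.46, or 27.8% lower, and 2.41% of all loci had a ratio as low. It lies on the minus strand at chr9:24718138-24774303. *Tbx1*, at chr16:18580979-18590671, marks the pharyngeal region and the precursor cells that it adds to the outflow tract, rather than the beating chambers. It was at 4.203 and 5.31 FPKM, mutant value first as in all pairs that follow, a log2 ratio of -0.33.

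*Nkx2-5*, the homeodomain factor that marks heart muscle precursors (chr17:26838664-26845009), was at 4.78 FPKM in mutants against 5.88 FPKM in wildtype embryos. Its log2 ratio of -0.29 lay near the middle of the 10 genes. *Mef2c*, which encodes a MADS box factor of the outflow tract and right ventricle and is also used by skeletal muscle and vessels (chr13:83504034-83667080), was at 4.39 and 5.59 FPKM, a log2 ratio of -0.34. *Hand1*, a basic helix-loop-helix factor of the left ventricle and of lateral and extraembryonic mesoderm (chr11:57828705-57832818), had the highest wildtype level. Its values were 15.8 and 20.1 FPKM, a log2 ratio of -0.35. Summed over the 8 transcription factors, the level was 54.9 FPKM in mutants against 69.5 FPKM in wildtype embryos, a log2 ratio of the sums of -0.34, and the 8 single ratios lay between -0.46 and -0.21.

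The peptide genes had smaller differences than most of the factors. *Nppa* (chr4:148000722-148002079) was at 16.7 FPKM in mutants against 19.9 FPKM in wildtype embryos, a log2 ratio of -0.24, or 15.7% lower. *Nppb* (chr4:147985788-147987205) was at 5.43 and 5.84 FPKM, a log2 ratio of -0.10, or 6.90% lower, and 27.8% of all loci had a ratio as low. *Nppa* thus stood at 3.08 times the level of *Nppb* in mutant and at 3.40 times in wildtype embryos. The pair are neighbours on the plus strand, with 13516 bases between the end of *Nppb* and the start of *Nppa*. For *Nppa*, 532 of 865 exonic bases are shared with the antisense transcript *Gm13054*, so reads of either gene there cannot be told apart.

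The sequence before the start of *Nppa* is shown because its product is the usual readout of these factors, with a stretch of *Nppb* beside it. Both come from RefSeq promoters on GRCm38.p6, the build also called mm10, and were searched on both strands for a GATA motif (AGATAA or TGATAA, and either of these with its last letter a G), an NK2 motif (TNNAGTG) and a T-box motif (AGGTGT). Capitals mark the matches, which do not overlap each other. The *Nppa* window is the 250 bases before the RefSeq start, chr4:148000472-148000721, and the *Nppb* run is 30 bases around its GATA matches, chr4:147985799-147985828, both on the plus strand.
*Nppa*: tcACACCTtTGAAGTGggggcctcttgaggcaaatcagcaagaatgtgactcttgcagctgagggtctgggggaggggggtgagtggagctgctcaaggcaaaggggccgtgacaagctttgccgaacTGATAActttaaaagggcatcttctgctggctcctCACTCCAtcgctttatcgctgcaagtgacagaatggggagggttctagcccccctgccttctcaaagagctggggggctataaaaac
*Nppb*: tgcagcTGATAAatcagAGATAAccccacc

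In this window *Nppa* held 1 GATA match that began 122 bases before the start, NK2 matches that began 241 and 87 bases before it, the latter on the minus strand, and a T-box match on the minus strand that began 248 bases before it. *Nppb* held GATA matches 95 and 84 bases before its RefSeq start and neither of the other motifs, and GENCODE M21 places these matches inside the first exon of *Nppb*. RefSeq promoters were found for 7 of the 10 genes, with 10 windows, and not for *Gata4*, *Gata6* and *Hand1*. GATA letters were in 2 of the 10 windows, those of *Nppa* and *Nppb*, against 26.5% of all 32851 promoter windows. NK2 letters were in 2 windows (*Nppa* and *Nkx2-5*) against 34.1% of all, and T-box letters in 3 (*Nppa*, *Mef2c* and *Tbx1*) against 11.8%. These are matches of letters and not sites of binding.

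The other genes of these families had mixed directions. Of 28 other GATA, T-box, NK2, HAND and MEF2 genes with a locus, 19 reached the mean of 1 FPKM, and 11 of these were higher and 8 lower in mutant embryos, with a median log2 ratio of 0.10. *Gata1*, *Gata2* and *Gata3*, which serve blood and other tissues, were all higher. *Gata1*, the red cell factor, was at 5.10 and 2.56 FPKM, a log2 ratio of 0.97, while *Gata2* and *Gata3* both had 0.16. *Hand2*, the relative of *Hand1* that acts in the right ventricle and limb, was at 12.2 and 11.4 FPKM, a log2 ratio of 0.10.

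Among 8 further T-box genes, 4 were higher and 4 lower (median log2 ratio -0.019). *Tbx2*, a repressor of chamber genes in the heart canal that also acts in other tissues, was the highest at 5.93 and 4.03 FPKM (log2 ratio 0.55), and *Tbx3* was at 7.28 and 6.33 FPKM (log2 ratio 0.20). *T*, the tail bud gene Brachyury, was the lowest at 3.23 and 7.75 FPKM (log2 ratio -1.24). *Tbx5*, a factor of the atria and left ventricle named here after its values were seen, was at 3.65 and 3.59 FPKM (log2 ratio 0.02). Of 5 further NK2 genes, 2 were higher and 3 lower, with a median of -0.094. The lowest was *Nkx2-6*, a pharyngeal and early heart relative of *Nkx2-5*, at 1.73 and 2.97 FPKM (log2 ratio -0.75), followed by *Nkx2-9* (-0.49), while *Nkx2-2* had the highest ratio (0.24). *Mef2a* and *Mef2d*, also named after their values were seen, had log2 ratios of -0.09 and 0.12, against -0.34 for *Mef2c*.

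**Figure D3:**
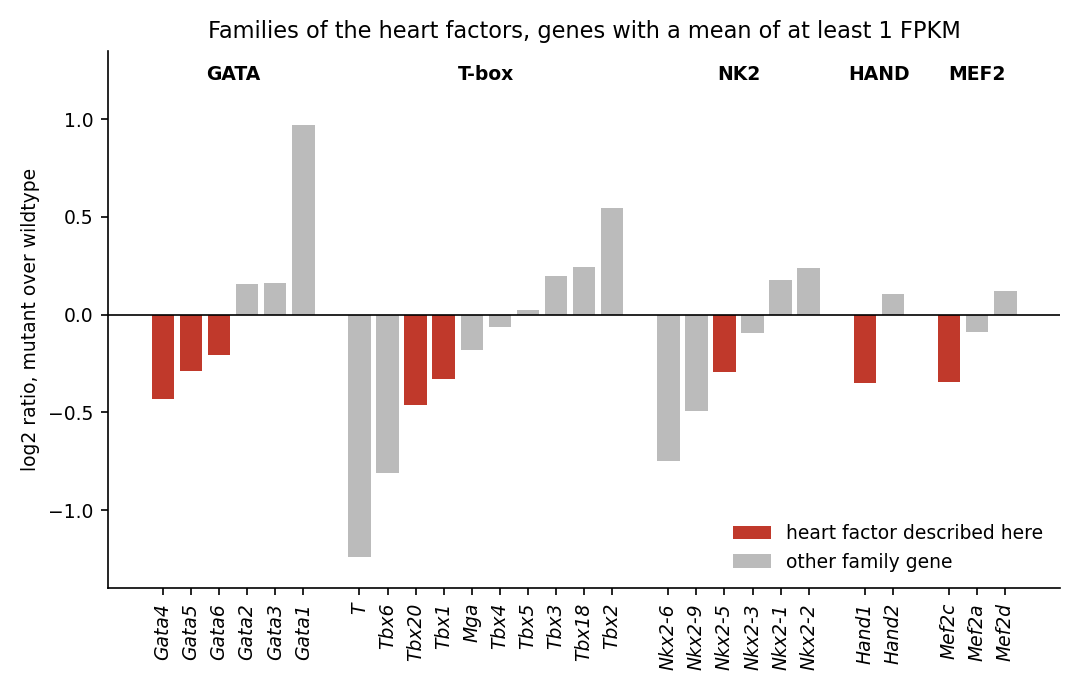
Log2 ratio of mutant over wildtype for each gene of the GATA, T-box, NK2, HAND and MEF2 families whose mean reached 1 FPKM, from 1 pooled value per genotype. The 8 heart factors described here all lie below 0, and of the other 19 family genes 11 lie above 0 and 8 below.

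A wider list of 22 further heart factors and cofactors was also mixed. Of the 20 whose mean reached 1 FPKM, 13 were higher and 7 lower in mutant embryos, with a median log2 ratio of 0.049 against -0.31 for the 10 genes. None was higher by 1.5-fold, and 2 were lower by that much. These were *Nkx2-6* and *Myocd*, a coactivator of muscle genes at 1.11 and 1.84 FPKM (log2 ratio -0.68). The most abundant, *Tead1* and *Srf*, both general partners in muscle transcription, had log2 ratios of -0.06 and 0.0052. *Isl1*, a marker of second heart field precursors and of motor neurons, was higher at 8.58 and 6.72 FPKM (log2 ratio 0.35). At the smaller limit of 0.32 on the log2 scale, 3 of the 20 were lower and 2 higher. *Hopx* (-0.41), *Hey2* (-0.32) and *Smyd1* (-0.28), named here after their values were seen, lay within the range of the 10 genes.

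The other genes of natriuretic signalling were mixed. Of 7 such genes, 4 were higher and 3 lower, with a median log2 ratio of 0.030. Past 1.5-fold were 2, both higher, namely *Npr2*, the receptor for the C-type peptide, at 3.26 and 1.94 FPKM (log2 ratio 0.72), and its ligand *Nppc* at 1.68 and 0.992 FPKM (log2 ratio 0.71). *Npr3*, the clearance receptor, which is found in endocardium, was the lowest at 3.98 and 4.84 FPKM (log2 ratio -0.28). *Npr1*, the receptor for the products of *Nppa* and *Nppb*, was at 2.40 and 2.66 FPKM (log2 ratio -0.15). *Furin*, which encodes a protease that can cut peptide precursors, was at 11.9 and 13.3 FPKM (log2 ratio -0.16). It was the only gene of this list with a mean of at least 5 FPKM.

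Heart muscle transcripts were present in both genotypes, where *Ttn*, the least abundant of 15 cardiac sarcomere genes, was at 5.03 and 5.44 FPKM. All 15 passed the mean of 1 FPKM. They summed to 1170 FPKM in mutants against 1360 FPKM in wildtype embryos, a log2 ratio of the sums of -0.22, against -0.30 for the sums of the 10 genes, which were 77.1 and 95.2 FPKM. Of the 15, 12 were lower and 3 higher, with a median log2 ratio of -0.15, and none reached 1.5-fold. The most abundant, the light chain gene *Myl7*, was also the lowest at 317 and 425 FPKM (log2 ratio -0.42). *Actc1*, the cardiac actin gene, was at 284 and 338 FPKM (log2 ratio -0.25), whereas *Myl2*, the light chain of the ventricle, was higher at 104 and 88.6 FPKM (log2 ratio 0.23). Among 9 chamber and conduction genes, 7 were lower and 2 higher, with a median of -0.18. *Cited1*, a transcription cofactor, was at 18.1 and 25.3 FPKM (log2 ratio -0.48), *Atp2a2*, the calcium pump gene, had -0.10, and *Ryr2*, the calcium release channel gene, had -0.56 but carried the status FAIL. *Pln*, which encodes the inhibitor of that pump, was the 1 gene of this list past 1.5-fold, at 2.21 and 1.19 FPKM (log2 ratio 0.83).

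The 10 genes are also active outside heart muscle, and markers of those places are given here for comparison. Of 10 pharyngeal and second heart field genes counted, where *Tbx1* and *Mef2c* act, 4 were higher and 6 lower, with a median log2 ratio of -0.056, ranging from *Prdm1* (-0.44) to *Isl1* (0.35). The 8 endothelial and endocardial genes had a median of -0.032, with 2 higher and 6 lower, from *Tek* (-0.36) to *Pecam1* (0.31), and *Egfl7* (-0.15) and *Cdh5* (-0.05) as the most abundant. In the gut endoderm, where GATA factors act, 3 of 7 genes were higher and 4 lower, with a median of -0.079. These included *Hhex* (-0.29), *Foxa2* (-0.08), *Shh* (0.11) and *Prox1* (0.24). Of 6 genes of the epicardium and lateral plate, where *Hand1* acts, 4 were higher and 2 lower, with a median of 0.17, among them *Bmp4* (-0.07), *Tcf21* (-0.13), *Hand2* and *Wt1* (0.42).

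The list of visceral endoderm, the yolk sac layer that expresses *Gata4* and *Gata6*, had the widest spread of these lists. Its genes are not particular to that layer, so their values do not measure the layer alone. Of 14 such genes, 9 passed the mean of 1 FPKM, 6 of them lower and 3 higher, with a median log2 ratio of -0.69, and 5 were lower and 3 higher by at least 1.5-fold. When genes with a mean under 5 FPKM were left out, only *Afp*, *Dab2* and *Rbp4* (log2 ratio -0.85) remained. The median at that filter, -0.29, was therefore the value of *Dab2* alone. All 14 summed to 49.2 FPKM in mutants against 59.6 FPKM in wildtype embryos, and none of the 14 was at 0 in both genotypes. *Ttr*, the thyroid hormone carrier gene, was at 2.48 and 7.51 FPKM (log2 ratio -1.56) and *Dab2*, an endocytic adaptor gene, had -0.29, whereas *Apoa2* (1.502) and *Afp* (0.85) were higher. Of 6 trophoblast genes, where *Hand1* is also used, *Tpbpa* and *Prl3d1* were listed at 0 in both genotypes and only *Plac1* reached a mean of 1 FPKM (log2 ratio -0.23). The part of visceral endoderm in the values of *Gata4*, *Gata6* and *Hand1* was not tested.

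Other cell types had higher levels in mutant embryos. All 8 neuron genes were higher, by 0.93 (*Elavl4*) to 1.67 (*Dcx*) on the log2 scale with a median of 1.40, and summed to 188 FPKM in mutants against 73.4 FPKM in wildtype embryos. *Tubb3* (1.43) and *Stmn2* (0.97) were the most abundant. All 8 erythroid genes were higher, with a median of 0.99, from *Klf1* (0.57) to *Hbb-y* (1.23), and including *Hba-x* (1.02), and they summed to 12729 and 6031 FPKM. Of 6 skeletal muscle genes, another site of *Mef2c*, the 3 that passed the mean of 1 FPKM were higher. Among them were *Myog* at 3.98 and 1.67 FPKM (log2 ratio 1.21) and *Des* (0.28), which is not particular to skeletal muscle. The part of these cell types in the ratios of the 10 genes was not tested. Globin loci held 1.71% of all FPKM in mutants and 0.781% in wildtype embryos. Of 12 housekeeping genes, 6 were higher and 6 lower, with a median of 0.0066, *Ppia* at -0.06, *Gapdh* at 0.06 and *Pgk1* lowest (-0.27). The ratios of *Gata6*, *Nppa* and *Nppb* lay within the range of these 12, and those of the other members lay below it. *Nkx2-5* and *Gata5*, both at -0.29, were only slightly below it. All 12 were more abundant than any member, with means of at least 20.9 FPKM (*Gusb*) against at most 18.3 FPKM (*Nppa*).

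**Figure D4:**
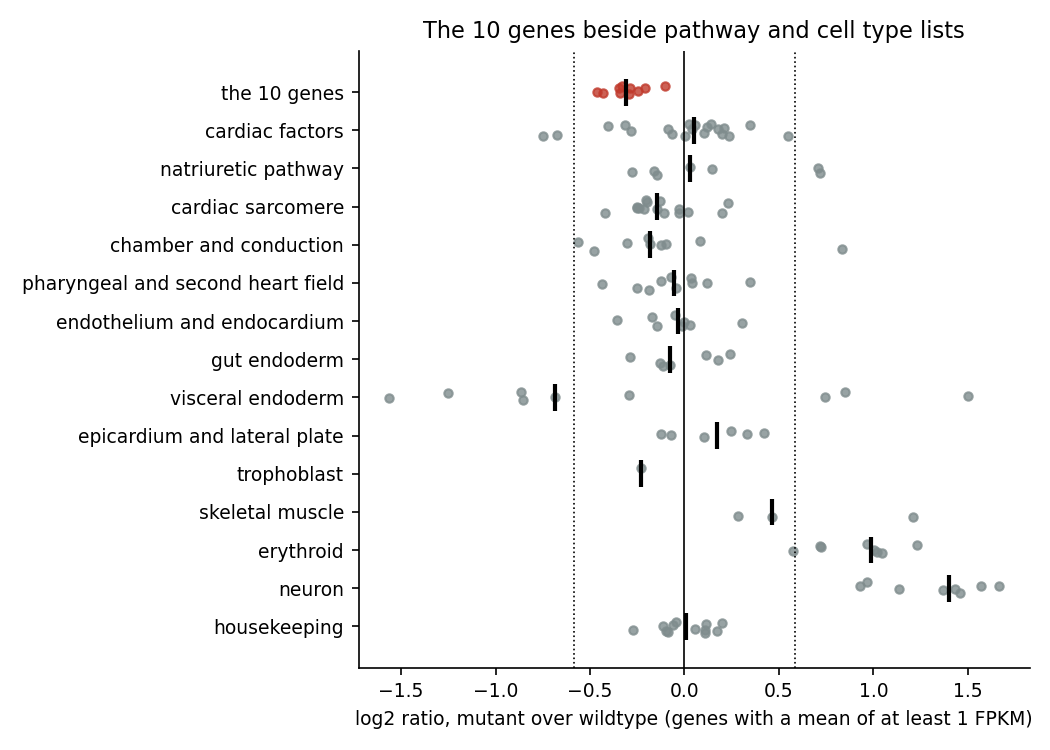
Log2 ratio of mutant over wildtype for the 10 genes and for genes of 14 lists, each point a gene whose mean reached 1 FPKM and each bar the median of its list, with dotted lines at 1.5-fold. The 10 genes lie between -0.46 and -0.10 and their median (-0.31) is below those of heart muscle (-0.15) and housekeeping genes (0.0066).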

How the data were processed

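Whole male embryos at E9.5 were profiled by RNA-seq, 6 in all and 3 for each genotype in the labels. The submitters' processing notes name TopHat2 2.0.6, Bowtie2 2.0.2, Cufflinks 2.0.2, Cuffdiff 2.0.2 and the build mm10. The authors deposited 1 FPKM value per genotype for 24207 loci, pooled over embryos and scaled by Cuffdiff. The table names the genotypes only by short codes, which the study's own copy of the table spells out. Its other deposited column used here is a status flag of another kind, which marks loci that Cuffdiff could test, and all 10 genes carried OK. The authors' fold changes, test statistics and p-values are in the table and were not used.

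Log2 ratios were taken after adding 0.1 FPKM, over loci whose mean of both genotypes was 1 FPKM or more, and a difference was counted past 1.5-fold. The rule for named genes took the 10 members and, from each of 17 lists, the 2 most abundant genes and those with the highest and lowest ratio. Some genes are in more than 1 list, and a few that the rule would name are not reported here. Members and lists were chosen with earlier results of these data known. Alternatives covered the pseudocount, the filter, the fold and the scaling between genotypes. The steps were tested on simulated data with 2-fold differences put in. This tested the code, and differences as small as those of the 10 members were not simulated. Positions are from GENCODE M21 and promoters from RefSeq. Python 3.11.15, numpy 2.4.6, pandas 2.3.3 and matplotlib 3.10.9 were used.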

Additional observations from a re-analysis of the deposited data

How the results depend on the processing

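All counted members were lower in mutant embryos under the other pseudocounts, filters and scalings (7 of 7 at a mean of at least 5 FPKM, 10 of 10 otherwise), and each of the 107 recomputed log2 ratios of single members kept its direction and stayed under 1.5-fold. These ratios ran from -0.48 to -0.059, the latter for *Nppb* after scaling to the same total FPKM, and the median of the members from -0.33 to -0.26. No member passed 1.5-fold or 2-fold, and 5 passed the smaller limit of 0.32 on the log2 scale. Counts at that limit under the other settings, added after seeing the data, ran from 2 (same total FPKM) to 5, with 3 when 1 FPKM was added and 3 at a mean of at least 5 FPKM, where fewer members are counted. Over the 17 lists, 31 genes passed 1.5-fold, against 15 at a mean of at least 5 FPKM and 15 at 2-fold, as fewer genes meet those limits. Of 184 recomputed list medians, 169 kept their direction and their side of 1.5-fold. Of the rest, 10 changed sign near 0 and 5 crossed 1.5-fold, all of them medians of visceral endoderm genes (-0.57 with 1 FPKM added and -0.29 at a mean of at least 5 FPKM) or skeletal muscle genes. At a mean of at least 5 FPKM the visceral endoderm list held only *Afp*, *Dab2* and *Rbp4*, and the natriuretic list only *Furin*. The scaling without globin loci was chosen after seeing the data. Leaving out each embryo was not possible, and no paired analysis was possible because 1 pooled value per genotype was used. Without counts or values per embryo, neither the counting error nor the spread between embryos behind these ratios can be stated.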

Other observations

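Among list genes with a mean under 1 FPKM, 7 had a log2 ratio beyond 1 in either direction, and they were picked out after their values were seen. The lowest was *Cubn*, an uptake receptor gene of the visceral endoderm, at 0.157 FPKM in mutants against 1.37 FPKM in wildtype embryos (log2 ratio -2.51), and *Apob* (-1.86) and *Amn* (-1.26) of the same list were also lower. The higher ones were *Tbx15*, *Myod1* (1.32) and *Msc* (1.19). *Tbx15*, a T-box gene of the limb and dermis, was at 1.53 FPKM in mutants against 0.388 FPKM in wildtype embryos (log2 ratio 1.74). *Mesp1*, which marks the earliest heart mesoderm, was at 0.0174 and 0.333 FPKM (log2 ratio -1.88). *Mesp1*, *Amn* and *Myod1* carried the status NOTEST.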
